A study of Mus musculus with 10 samples.

Results

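The genes described are 10 genes of the contractile apparatus and of the CCN family of matricellular proteins, followed in mouse primary cortical neurons exposed to lactacystin, an inhibitor of the proteasome. They are Ccn1 and Ccn2 (older names Cyr61 and Ctgf), Acta2, Tagln, Tagln2, Myl9, Cnn1, Cnn2, Tpm1 and Tpm2, and they were found through the gene symbols of the arrays' annotation. Together they had 11 probe sets of the 12488 on the larger array, out of 8251 named genes there, and 8 of the 11 lay among the 9977 probe sets that both array designs share. The genes were chosen by their signals under lactacystin against control in these same arrays, several having stood high at 24 h or 48 h. Differences between lactacystin and control are therefore described here without a p-value for these genes, and tests are given for the changes with time.

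The treated cultures were exposed to 1 µM lactacystin for 48 h (3 arrays) or 24 h (3 arrays), and control cultures were taken at 48 h (2 arrays) and 24 h (2 arrays). All came from the cortex of foetal Swiss albino mice of gestation day 15 to 16 and were treated on day 5 in vitro. Whether the controls received the solvent of the inhibitor, DMSO, and whether replicates were separate cultures is not given in the labels, and p-values therefore rest on a spread among arrays that could be purely technical. In each group 1 array was of the U74A design (replicate 3 of lactacystin at 48 h, replicate 1 elsewhere) and the rest were of its revision U74Av2. Changes are adjusted for design, and culture or processing batches that went with a design cannot be told apart from it. Signals are scaled array by array and have no absolute unit, so levels of different genes were not compared.

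CCN1 and CCN2 are secreted proteins of the extracellular matrix, and their genes are classic targets of the co-activators YAP and TAZ acting with TEAD factors and of TGF-beta signalling. Acta2 (smooth muscle alpha-actin), Tagln (transgelin, SM22 alpha), Myl9 (the regulatory light chain of smooth muscle myosin) and Cnn1 (calponin 1) encode parts of the contractile filaments of smooth muscle and mural cells. Control regions of such genes are known for CArG boxes, at which serum response factor (SRF) and its actin-sensing co-activators of the MRTF family act. Tagln2, Cnn2, Tpm1 and Tpm2 are related actin-binding proteins, calponins and tropomyosins, with a wider distribution over cell types.

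RefSeq promoter sequences (build GRCm38.p6) were at hand for 8 of the 10 genes, Ccn2 and Tagln being the other two. Stretches of 250 bases for 5 of them, ending just before the first listed start site and written on the gene's strand, are shown because they hold the motifs that the literature ties to this set. Capitals mark CArG boxes (CC, a run of A and T, then GG) with at most 1 mismatch and the TEAD-type motif GGAATG on either strand.
Acta2, chr19:34255374-34255623, minus strand: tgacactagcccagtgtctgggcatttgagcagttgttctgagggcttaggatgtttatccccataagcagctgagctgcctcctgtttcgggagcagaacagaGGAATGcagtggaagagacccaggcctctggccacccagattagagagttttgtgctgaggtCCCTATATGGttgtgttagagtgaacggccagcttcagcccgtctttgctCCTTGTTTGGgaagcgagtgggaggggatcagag
Myl9, chr2:156775214-156775463, plus strand: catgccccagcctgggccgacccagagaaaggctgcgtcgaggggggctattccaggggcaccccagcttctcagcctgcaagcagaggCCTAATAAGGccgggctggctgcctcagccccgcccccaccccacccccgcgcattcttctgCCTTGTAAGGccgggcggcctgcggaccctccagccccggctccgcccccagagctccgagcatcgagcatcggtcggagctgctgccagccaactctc
Cnn2, chr10:79988350-79988599, plus strand: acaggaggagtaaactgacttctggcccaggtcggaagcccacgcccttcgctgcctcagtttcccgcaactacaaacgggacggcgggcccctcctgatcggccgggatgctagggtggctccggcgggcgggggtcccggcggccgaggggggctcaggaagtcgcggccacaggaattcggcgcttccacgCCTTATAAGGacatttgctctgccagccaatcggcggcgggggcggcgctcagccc
Tpm1, chr9:67049214-67049463, minus strand: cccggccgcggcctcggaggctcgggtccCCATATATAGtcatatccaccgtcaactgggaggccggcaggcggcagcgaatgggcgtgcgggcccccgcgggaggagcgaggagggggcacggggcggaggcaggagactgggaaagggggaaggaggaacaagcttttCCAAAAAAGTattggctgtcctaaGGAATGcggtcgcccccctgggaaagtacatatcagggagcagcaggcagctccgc
Ccn1, chr3:145649986-145650235, minus strand: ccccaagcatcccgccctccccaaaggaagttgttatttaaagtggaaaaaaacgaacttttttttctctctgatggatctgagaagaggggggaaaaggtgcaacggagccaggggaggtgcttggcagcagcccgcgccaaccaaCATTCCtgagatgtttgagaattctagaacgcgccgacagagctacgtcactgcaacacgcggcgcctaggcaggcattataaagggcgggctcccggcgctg
A CArG box without mismatch was found in 2 of the 8 promoters, against 1.40% of 27018 promoters of the same length. These were CCTTATAAGG in Cnn2, 56 bases before the start, and CCTAATAAGG in Myl9, 161 bases before it. With 1 mismatch allowed, Acta2 and Tpm1 joined them, which made 4 of 8 against 18.9% of all promoters. The TEAD-type motif, searched on both strands, was in 4 of 8 (Acta2, Tpm1, Ccn1 and Tagln2) against 12.6%, and no base was shared by both kinds of motif. The windows of Cnn1 and Tpm2 held neither motif. A match describes letters in these windows and does not show a bound site, and distal sites were not searched.

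In log2 change with 32 added to the signals, Ccn2 differed most of these genes between lactacystin and control cultures at both times. At 48 h its signals were 493, 408 and 251 under lactacystin, against 12.0 and 65.2 in the controls. At 24 h they were 556, 542 and 459 under lactacystin, against 10.2 and 59.3 in the controls. All 6 lactacystin arrays lay above all 4 control arrays, and the low value of each control pair came from the U74A array. The log2 change, from signals with 32 added, was 2.51 ± 0.27 (SE) at 48 h and 3.03 ± 0.27 at 24 h, which ranked at 7 and 5 of the 6984 probe sets tested. The control means lay under the filter on low signals, so the gene was tested only because of its lactacystin arrays, and the size of its change is set in part by the added signal. With 16 added in place of 32 it was 2.88 log2 at 48 h and 3.44 at 24 h. With the largest amount tried it was 1.55 at 48 h, below Acta2 (1.83) and Tagln (1.78), and 1.95 at 24 h. Within U74A the change was 2.69 at 48 h and 3.80 at 24 h, and within U74Av2 it was 2.30 and 2.54 at the same times.

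Ccn1, its close relative, showed a smaller difference of the same direction. Its signals were 189, 191 and 281 under lactacystin at 48 h, against 97.5 and 61.0 in the controls. At 24 h they were 310, 156 and 175 under lactacystin, against 79.3 and 81.2 in the controls. The groups did not overlap at either time, and the highest lactacystin value of each time was on the U74A array. The change was 1.26 ± 0.19 log2 at 48 h and 1.16 ± 0.19 at 24 h. In bulk cultures a change in the share of cells that express a gene and a change in RNA per cell cannot be told apart, which holds for every gene described here.

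The smooth muscle genes Acta2 and Tagln stood highest under lactacystin at 48 h. Acta2 had signals of 1455, 831 and 1725 under lactacystin at 48 h, against 259 and 333 in the controls, with a mean of 1337 ± 459 (SD, n = 3) and 296 ± 52.3 (SD, n = 2). Tagln had 1178, 654 and 1285 under lactacystin at 48 h, against 261 and 191 in the controls, with a mean of 1039 ± 338 (SD, n = 3) and 226 ± 49.5 (SD, n = 2). For both genes every lactacystin array of 48 h lay above every control array, by 2.10 ± 0.33 log2 for Acta2 and 2.12 ± 0.27 for Tagln, and replicate 2 was the lowest of the 3. Without control replicate 1 or 2 of 48 h the change of Acta2 was 1.56 or 2.73. The changes in the fit of all arrays ranked at 12 and 10 of the 6984.

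At 24 h the lactacystin arrays lay further apart. Acta2 had 1086, 334 and 457 under lactacystin, against 400 and 306 in the controls, so that the groups overlapped. Tagln had 860, 349 and 300 under lactacystin, against 211 and 170 in the controls, with no overlap. In both genes the high value was that of replicate 1, on U74A. The change at 24 h was 0.71 ± 0.33 log2 for Acta2, not past the threshold, and 1.24 ± 0.27 for Tagln. Within U74A, with 1 array a group, it was 1.37 for Acta2 and 1.87 for Tagln, and within U74Av2 it was 0.33 and 0.82 for the same genes.

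Myl9 was also higher under lactacystin at both times. Its signals at 48 h were 375, 229 and 326 under lactacystin, against 134 and 124 in the controls. At 24 h they were 268, 150 and 172 under lactacystin, against 107 and 140 in the controls. No lactacystin array overlapped the controls of its time, and at 24 h the array on U74A was again the high one. The change was 1.09 ± 0.23 log2 at 48 h and 0.56 ± 0.23 at 24 h, the second not past the threshold, with 1.11 within U74A and 0.17 within U74Av2 at 24 h.

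Among the calponins, Cnn2 and Cnn1 parted. Cnn2, the calponin found outside smooth muscle, had 367, 187 and 233 under lactacystin at 48 h, against 110 and 119 in the controls. At 24 h it had 403, 220 and 245 under lactacystin, against 127 and 114 in the controls. The groups did not overlap at either time, and the changes were 0.99 ± 0.26 log2 at 48 h and 1.06 ± 0.26 at 24 h. Cnn1, the calponin of differentiated smooth muscle, lay below the filter on low signals and was not tested. Its signals ranged between 7.52 and 26.3 under lactacystin at 48 h, against 27.9 and 31.9 in the controls, and between 6.30 and 58.5 under lactacystin at 24 h, against 14.1 and 19.6 in the controls.

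Tagln2, the transgelin of many non-muscle cells, and Tpm1, a tropomyosin that winds along actin filaments, were measured on the 6 U74Av2 arrays alone. Tagln2 had 821 and 988 under lactacystin at 48 h, against 458 in the control, and 900 and 1018 under lactacystin at 24 h, against 550 in the control. Its change was 0.93 ± 0.16 log2 at 48 h and 0.76 ± 0.16 at 24 h in a fit of those 6 arrays with 8695 probe sets. Tpm1 had 1466 and 1099 under lactacystin at 48 h, against 1005 in the control, and 871 and 862 under lactacystin at 24 h, against 816 in the control. Its changes, 0.33 ± 0.18 at 48 h and 0.08 ± 0.18 at 24 h, were not past the threshold at either time. With 1 control array a time, these values carry no spread among controls of their own.

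Tpm2, the beta-tropomyosin of muscle, was measured on all 10 arrays. It had 173, 155 and 217 under lactacystin at 48 h, against 126 and 112 in the controls, without overlap. At 24 h it had 149, 95.7 and 79.3 under lactacystin, against 202 and 99.3 in the controls, with overlap. The change was 0.58 ± 0.19 log2 at 48 h and -0.27 ± 0.19 at 24 h, neither past the threshold. A second probe set of Tpm2, on U74Av2 alone, stayed between 9.33 and 53.9 on all 6 arrays and lay below the filter.

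**Figure D1:**
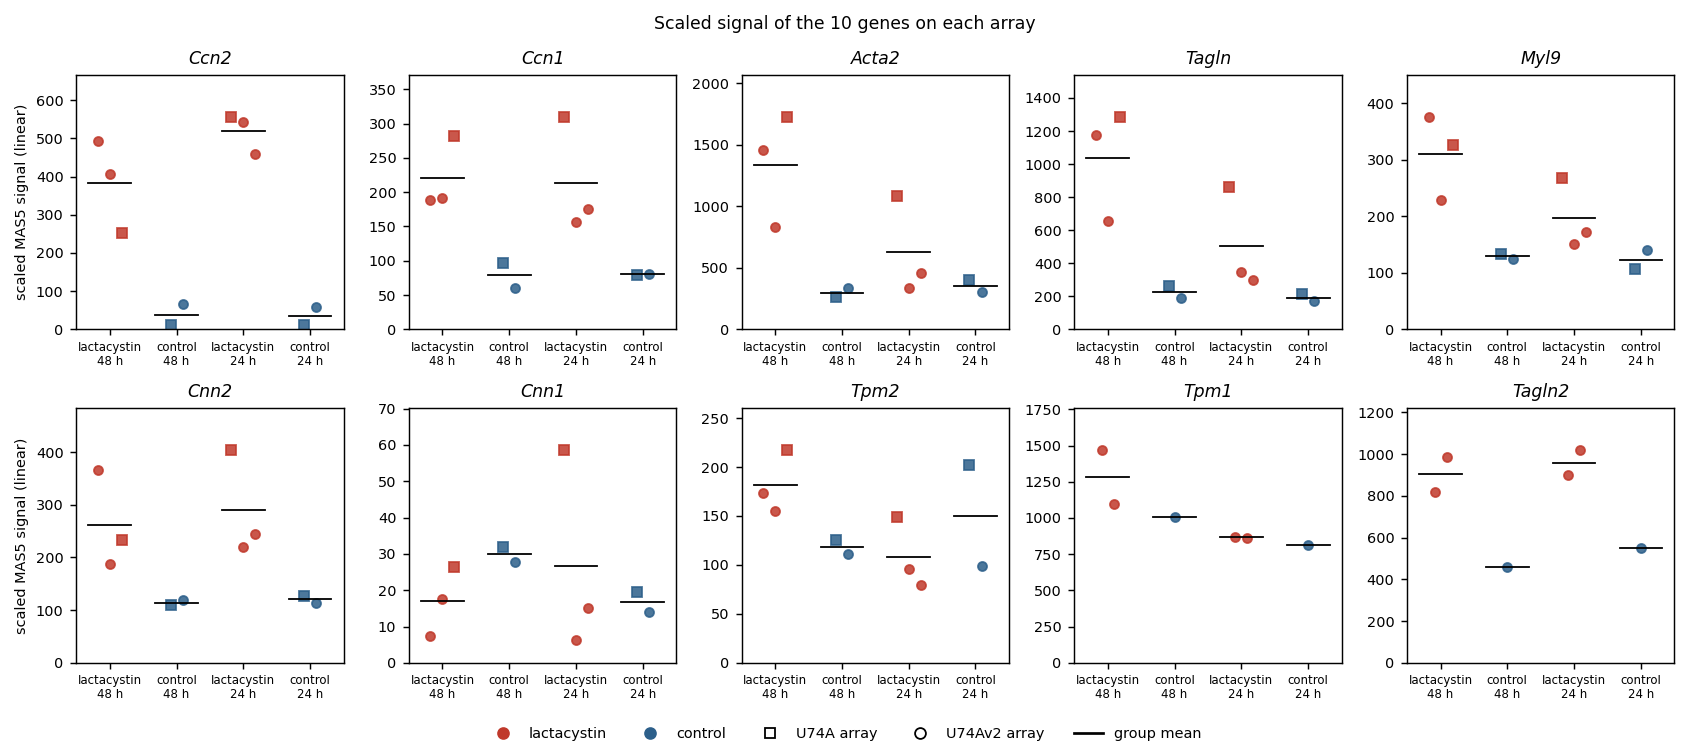
Scaled signal of each gene on each array (linear axis from 0), with lactacystin groups in red left of the control groups of the same time in blue, squares for U74A arrays, circles for U74Av2 arrays and a line for the group mean. The 6 lactacystin values of Ccn2 lie between 251 and 556 and the 4 control values between 10.2 and 65.2, while the lactacystin points of Acta2, Tagln and Myl9 at 24 h are spread with the U74A array on top.

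As a description by the threshold of the whole table, of the 7 probe sets on both designs that passed the filter, 6 were called higher under lactacystin at 48 h and 4 at 24 h. Of all 6984 probe sets, 6.76% were called higher at 48 h and 8.15% at 24 h, and since these contrasts chose the genes, nothing is read from the excess. Ccn2, Ccn1, Tagln and Cnn2 were called at both times, Acta2 and Myl9 at 48 h alone, and Tpm2 at neither. Every lactacystin array lay above every control array in 7 of 8 probe sets at 48 h and 5 of 8 at 24 h, against 16.6% and 17.2% of those tested. The other one at 48 h, Cnn1, had every lactacystin array below every control array, at signals under the filter. In the fit of the 6 U74Av2 arrays, 5 of 9 were called higher at 48 h and 2 of 9 at 24 h, where 3.14% and 4.51% of 8695 were.

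These counts moved with single arrays. Leaving out control replicate 1 of 24 h took 2 of the 4 calls at 24 h, those of Tagln (then 1.00 log2) and Cnn2 (then 1.03). Cnn2 also lost its call at 24 h without control replicate 2 (1.09) or lactacystin replicate 1 (0.77). At 48 h, leaving out either control array of that time left 4 of 6 calls, without Myl9 (1.04 or 1.15) and Cnn2 (0.84 or 1.17). Cnn2 was also not called at 48 h without lactacystin replicate 1 of 48 h (0.72) or without either control array of 24 h (0.99 each).

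**Figure D2:**
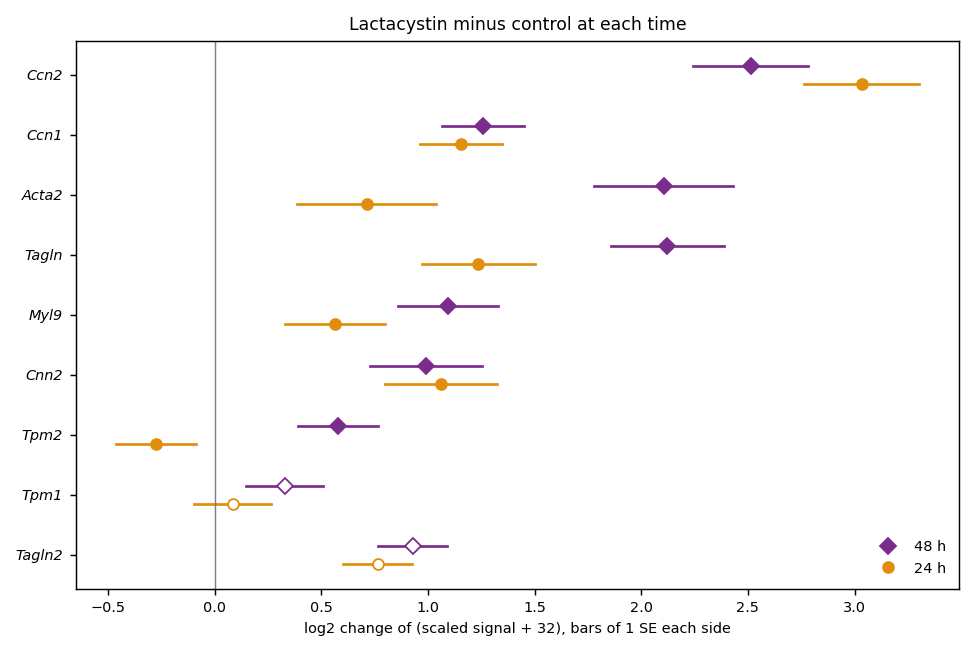
Log2 change of lactacystin minus control for each gene at 48 h and at 24 h, with bars of 1 SE to each side, filled symbols for the fit of all 10 arrays and open symbols for genes measured on the 6 U74Av2 arrays alone. Ccn2 is the highest at both times (2.51 and 3.03), and Acta2 and Tagln lie near 2.1 at 48 h but at 0.71 and 1.24 at 24 h.

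The comparison of lactacystin at 48 h with lactacystin at 24 h was not used to choose the genes, although it shares its arrays with the contrasts above. Here 3 of the 7 probe sets passed the test, all higher at 48 h, and 6.19% of the 6984 were called higher (11.5% in either direction). Tagln rose by 1.09 ± 0.24 log2 (SE, limma adjusted p = 0.0127) and Acta2 by 1.16 ± 0.29 (limma adjusted p = 0.0256). Tpm2 rose by 0.63 ± 0.17 (limma adjusted p = 0.0340), and Myl9 stood at 0.59 ± 0.21 (limma adjusted p = 0.0914). Within U74Av2 the change was 1.36 for Tagln, 1.42 for Acta2, 0.72 for Tpm2 and 0.76 for Myl9. Within U74A, with 1 array a group, it was 0.56, 0.65, 0.46 and 0.26 for the same genes. The share of all probe sets that rose within both designs was not computed, so nothing is read from this likeness. Over all arrays, every 48 h array lay above every 24 h array in 1 of 8 probe sets, that of Tpm2, against 11.8% of those tested. The lowest 48 h and highest 24 h values were 654 and 860 for Tagln, 831 and 1086 for Acta2, and 229 and 268 for Myl9, so these overlapped.

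The CCN genes and Cnn2 had no call between the times under lactacystin. Ccn2 stood at -0.45 log2 (95% interval -0.97 to 0.08, limma adjusted p = 0.263), Ccn1 at 0.07 (-0.30 to 0.44, limma adjusted p = 0.823) and Cnn2 at -0.13 (-0.64 to 0.38, limma adjusted p = 0.763). A missed threshold does not show that the times were alike for these genes. In the fit of U74Av2 arrays, Tpm1 stood at 0.53 ± 0.15 (limma adjusted p = 0.0787) and Tagln2 at -0.08 ± 0.13 (limma adjusted p = 0.722).

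The calls with time rested on few arrays. Acta2 lost its call without lactacystin 24 h replicate 2 (limma adjusted p = 0.107) or 3 (0.0797), or without 48 h replicate 1 (0.0944) or 3 (0.0735). Tagln lost it without 24 h replicate 2 (0.0549) or 3 (0.0606), and Tpm2 without either of these or any array of lactacystin at 48 h (0.0639 to 0.131). Without lactacystin 24 h replicate 1, the array that stood high, Myl9 rose by 0.81 log2 (limma adjusted p = 0.0382). In the fit with the replicate number as a block, Tpm2 had a limma adjusted p of 0.0586.

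In the controls none of the 7 tested probe sets was called between the times. Their changes of 48 h over 24 h lay between -0.23 and 0.20 log2, and 0 of 6984 (0.0%) were called by limma over the whole table. On U74Av2 alone Tpm1 stood at 0.29 ± 0.21 and Tagln2 at -0.25 ± 0.19, and Cnn1, under the filter, had 31.9 and 27.9 at 48 h, against 19.6 and 14.1 at 24 h. At an unadjusted p under 0.05 there were 390 probe sets and none of the 7. With 2 arrays a time this comparison had little precision, as the interval of Ccn2 (-0.57 to 0.72) shows.

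The test of whether the lactacystin effect itself differed between 48 h and 24 h called 0 of 7, where 90 of 6984 (1.29%) were called in either direction, and 3 of the 7 had an unadjusted p under 0.05, as had 1131 of the 6984. The difference of effects was 1.39 ± 0.46 log2 for Acta2 (limma adjusted p = 0.165), 0.85 ± 0.26 for Tpm2 (limma adjusted p = 0.146) and 0.89 ± 0.37 for Tagln (limma adjusted p = 0.266). For Ccn2 it was -0.52 ± 0.38 (limma adjusted p = 0.537). Without lactacystin 24 h replicate 1 the value for Acta2 was 1.77 and passed (limma adjusted p = 0.0460). In the fit of all arrays the effects of lactacystin at 48 h and at 24 h were thus not shown to differ for any of the 7, Acta2 and Myl9 included.

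**Figure D3:**
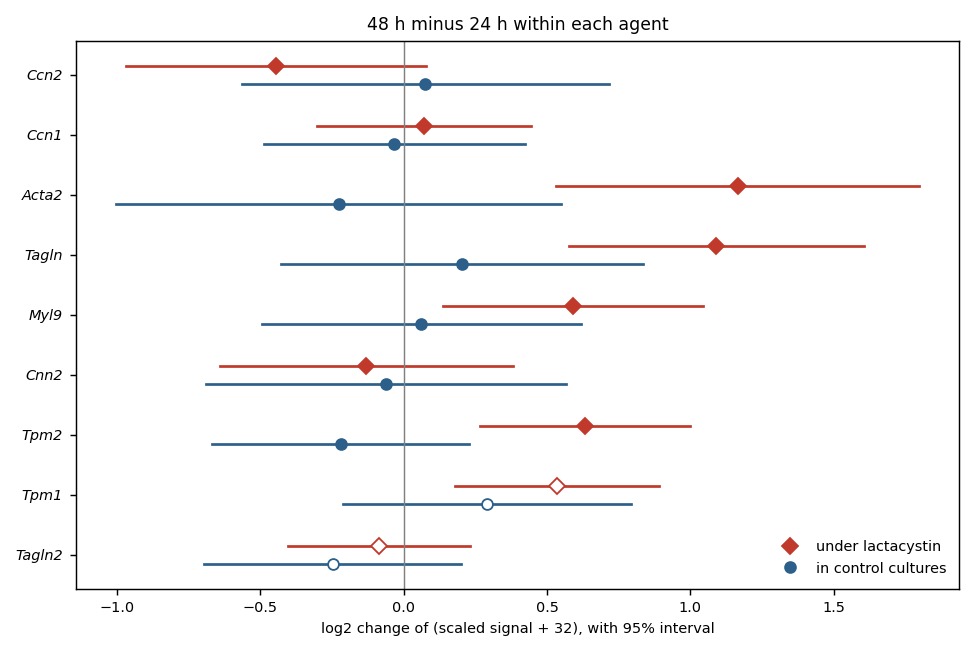
Log2 change of 48 h minus 24 h for each gene under lactacystin (red diamonds) and in controls (blue circles), with 95% intervals before adjustment for many tests, open symbols marking genes from the 6 U74Av2 arrays alone. Under lactacystin the intervals of Tagln, Acta2, Tpm2, Myl9 and Tpm1 lie above 0, the last 2 without passing after adjustment, and in controls the intervals of all genes cover 0.

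Arrays that were high for any of Acta2, Tagln and Myl9 tended to be high for the others. Over the 10 arrays, with log2 signals centred within each design, Pearson's r was 0.98 for Myl9 with Tagln, 0.96 for Acta2 with Myl9 and 0.95 for Acta2 with Tagln. It was 0.97 for Ccn1 with Ccn2 and 0.93 for Ccn2 with Cnn2, and lowest, 0.16, for Ccn2 with Tpm2. With the contractile genes Tpm2 had r of 0.24 (Cnn2), 0.55 (Myl9), 0.60 (Tagln) and 0.70 (Acta2). These values describe 10 arrays that fall into treated and control groups, and r within the groups was not computed. The genes were chosen by the difference between those groups, so a high r among them is a description alone.

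By the same measure the 5 genes most like Ccn2 were Cavin3 (r = 0.998), a caveolar coat protein, Anxa3 (0.985), a calcium-dependent membrane-binding annexin, Rnh1 (0.983), the ribonuclease inhibitor, Emp1 (0.983), a membrane protein of epithelia, and Csf1 (0.982), the macrophage growth factor. Their log2 changes at 48 h and at 24 h were 1.75 and 2.33 for Cavin3, 2.89 and 3.17 for Anxa3, 1.96 and 2.45 for Rnh1, 2.05 and 2.16 for Emp1, and 1.12 and 1.41 for Csf1. The 5 most like Tagln were Wls (r = 0.987), which carries Wnt proteins to the surface, Angptl4 (0.980), a secreted inhibitor of lipoprotein lipase, Myl9 (0.978), Grhpr (0.976), an enzyme of glyoxylate metabolism, and Ezr (0.973), which links actin to the membrane. Among these, Angptl4 changed by 2.12 log2 at 48 h and 1.04 at 24 h, and Wls by 1.08 and 0.73. Each of the 5 like Ccn2 had the larger value at 24 h, and each of the 5 like Tagln at 48 h. The lists were taken from the same arrays for their likeness, so these values are a description.

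Other genes of the actin cytoskeleton and of the SRF and MRTF pathway changed in part. This list and the YAP, TEAD and TGF-beta lists below were chosen with earlier results of these data known. Their counts, medians and adjusted p-values against control are therefore a description and no independent evidence. Of 36 listed genes 21 were tested, of which 5 rose and 1 fell at 48 h and 4 rose at 24 h. Over all 6984 probe sets 6.76% rose and 3.57% fell at 48 h, and 8.15% rose and 6.63% fell at 24 h. Vcl (vinculin, of focal adhesions) rose by 1.01 ± 0.19 log2 at 48 h (limma adjusted p = 0.00680) and 0.92 ± 0.19 at 24 h (0.00824). Actn1 (alpha-actinin 1, an actin cross-linker) rose by 0.89 ± 0.15 at 48 h (limma adjusted p = 0.00351) and 1.01 ± 0.15 at 24 h (0.00114). Myh9, the heavy chain of non-muscle myosin IIA, rose by 1.03 ± 0.15 at 24 h (limma adjusted p = 0.00137), and Csrp1, a LIM protein of the actin cytoskeleton, by 0.81 ± 0.18 at 48 h (0.0154). The one that fell was Tln1, the integrin-binding talin, at -0.48 ± 0.14 at 48 h (limma adjusted p = 0.0474), named because it was the only fall. Tln1 lost this call without either control of 48 h (limma adjusted p = 0.177 and 0.254), without lactacystin 48 h replicate 2 (0.0750) or 3 (0.175) or 24 h replicate 2 (0.0751) or 3 (0.0688), and under 7 other settings (0.0543 to 0.228). Rises at 48 h were fragile too. That of Actn4 (0.49 ± 0.14, limma adjusted p = 0.0417) lost its call without any 1 lactacystin array of 48 h (0.0628 to 0.112) and under several other settings. That of Myh9 (0.62 ± 0.15, limma adjusted p = 0.0271) lost it without any 1 of the same arrays (0.0554 to 0.0686), and was 0.29 log2 without control 48 h replicate 2. The list's median was 0.04 at 48 h and -0.07 at 24 h, against 0.04 and -0.03 over all tested probe sets. Without control replicate 2 of 48 h the 48 h count was 2, without control replicate 1 it was 3, and with the replicate block it was also 3. Vcl lost its call without control replicate 2 of either time (limma adjusted p = 0.115 at 48 h and 0.171 at 24 h), and Csrp1 without control 48 h replicate 1 (0.143).

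Acta2 has near-identical relatives among the actins, and signals of such genes can mix where probes are shared. Each of the other actins was represented by its probe set of highest mean alone, and none of these was called. Whether their signals mixed with that of Acta2 was not tested. Actg2 stood at 0.04 ± 0.19 log2 at 48 h (limma adjusted p = 0.930), Acta1 at -0.30 ± 0.21 (0.424) and Actc1 at 0.20 ± 0.18 (0.557). The cytoplasmic actins Actb and Actg1 stood at -0.18 ± 0.24 (limma adjusted p = 0.717) and -0.03 ± 0.10 (0.902). Under lactacystin, 2 listed genes rose at 48 h over 24 h, Fhl1 (0.67 ± 0.11, limma adjusted p = 0.00254), a LIM protein of muscle, and Csrp1 (0.59 ± 0.16, limma adjusted p = 0.0344). Csrp1 lost this call without lactacystin 24 h replicate 2 (limma adjusted p = 0.127) or 3 (0.137), or without 48 h replicate 1 (0.111) or 2 (0.0914).

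Of 24 listed YAP and TEAD genes 9 were tested, and 4 rose at 48 h and 5 at 24 h, with none lower, against 6.76% and 8.15% of all probe sets higher. F3, which encodes tissue factor, rose by 1.09 ± 0.15 log2 at 48 h (limma adjusted p = 0.00139) and 1.49 ± 0.15 at 24 h (0.000103). Wwtr1, the gene of the co-activator TAZ, rose by 0.94 ± 0.16 at 48 h (limma adjusted p = 0.00337) and Igfbp3, a carrier of insulin-like growth factors, by 1.13 ± 0.25 at 24 h (0.0119). Gadd45a, also a p53 target, rose by 0.85 ± 0.19 at 48 h (limma adjusted p = 0.0153) and 1.87 ± 0.19 at 24 h (9.26e-05). Under lactacystin Gadd45a was lower at 48 h than at 24 h, with a change of -1.31 ± 0.17 (limma adjusted p = 0.000543). The list's median was 0.61 at 48 h and 0.59 at 24 h, against 0.04 and -0.03 over all tested probe sets. Since the list was chosen with earlier results known, nothing is read from this excess. Without either control array of 24 h the 24 h count was 3, Igfbp3 lost its call without control 24 h replicate 1 (limma adjusted p = 0.128), and Gadd45a lost its call at 48 h without control 48 h replicate 2 (0.205).

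Of 22 TGF-beta pathway genes 12 were tested and 2 rose at each time, with none lower, against 6.76% of all probe sets higher at 48 h and 8.15% at 24 h. Tgif1, a repressor of SMAD-driven transcription, rose by 1.07 ± 0.23 log2 at 48 h (limma adjusted p = 0.0155) and 1.41 ± 0.23 at 24 h (0.00239). Id1, an inhibitor of basic helix-loop-helix factors induced by BMP signals, rose by 0.98 ± 0.21 at 48 h (limma adjusted p = 0.0144) and 0.97 ± 0.21 at 24 h (0.0101). The list's median was 0.46 at 48 h and 0.09 at 24 h, beside the same 0.04 and -0.03 over all probe sets. Both calls of 48 h were lost without control 48 h replicate 2 (limma adjusted p = 0.220 for Tgif1 and 0.0799 for Id1), and that of Id1 without replicate 1 (0.121). At 24 h Id1 lost its call without control replicate 1 (limma adjusted p = 0.114) and Tgif1 without control replicate 2 (0.0629). Of the other CCN genes, Ccn3 and Ccn4 were tested and neither was called, with -0.19 ± 0.18 and 0.26 ± 0.20 at 48 h and 0.12 ± 0.18 and 0.33 ± 0.20 at 24 h.

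**Figure D4:**
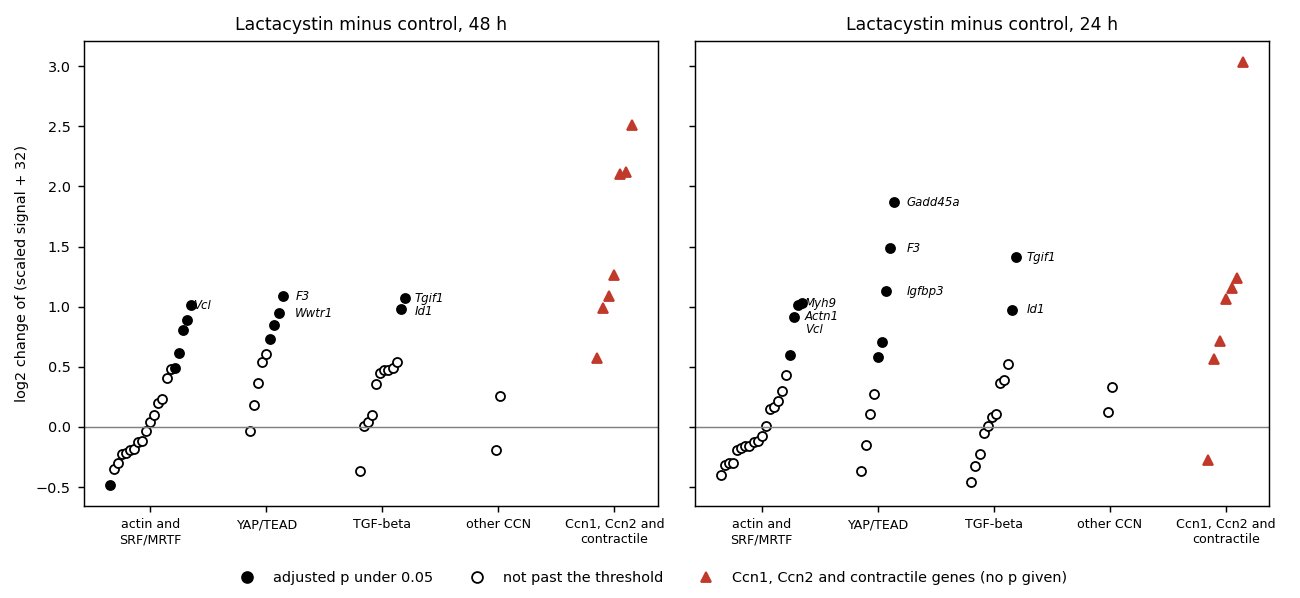
Log2 change of lactacystin minus control for each tested gene of the pathway lists (circles, filled where the adjusted p was under 0.05) and for the contractile and CCN genes (triangles, no p given), at 48 h on the left and 24 h on the right. Ccn2, at 2.51 and 3.03, lies above every listed gene at both times, and the YAP and TEAD genes have medians of 0.61 and 0.59.

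Acta2, Tagln, Myl9 and Cnn1 are genes of mural cells and smooth muscle, so markers of other cell types were set beside them. Of 7 mural and smooth muscle markers on both designs, only Rgs5 and Notch3 passed the filter, and neither was called, with 0.54 ± 0.22 log2 (limma adjusted p = 0.149) and 0.22 ± 0.16 (0.423) at 48 h. Des, Myh11, Kcnj8, Abcc9 and Anpep lay below the filter. The summed signal of the 7 was 480 to 587 under lactacystin at 48 h, against 389 to 540 in the controls, and 481 to 578 under lactacystin at 24 h, against 445 to 539 in the controls. Of 7 tested fibroblast and meningeal markers none was called at either time, and the sum of the 8 on both designs was 2634 to 2677 under lactacystin at 48 h, against 2536 to 2723 in the controls. At 24 h it was 1598 to 2389 under lactacystin, against 1893 to 2814 in the controls. Under lactacystin, Pdgfra of this list was higher at 48 h than at 24 h (1.10 ± 0.31, limma adjusted p = 0.0439), in that comparison the direction of Acta2 and Tagln. Against control, Pdgfra stood at 0.12 ± 0.35 log2 at 48 h and -0.58 ± 0.35 at 24 h, neither called.

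Between the times under lactacystin, 3 of 6 tested astrocyte markers, 1 of 5 microglia and macrophage markers and 1 of 7 neuron markers were called higher at 48 h. So were 1 of 7 fibroblast and meningeal, 0 of 2 mural, 0 of 2 endothelial and 0 of 1 oligodendrocyte markers, against 6.19% of all probe sets. Against control, the astrocyte list (7 markers, 6 tested) had 2 higher at 48 h and 1 higher and 3 lower at 24 h (over all probe sets 6.76% were higher at 48 h, and 8.15% higher and 6.63% lower at 24 h). It summed to 23843 to 30163 under lactacystin at 48 h, against 18882 to 26485 in the controls. At 24 h it summed to 13256 to 21120 under lactacystin, against 16511 to 24646 in the controls. Gfap, the intermediate filament of astrocytes, was higher at 48 h than at 24 h under lactacystin by 2.01 ± 0.13 log2 (limma adjusted p = 1.29e-05), in that comparison the direction of Acta2 and Tagln. Against control, Gfap was higher at 48 h (1.40 ± 0.15, limma adjusted p = 0.000324) but lower at 24 h (-0.64 ± 0.15, limma adjusted p = 0.0155). Of the same list, Aqp4 and Apoe were also lower at 24 h (-1.89 ± 0.18 and -0.95 ± 0.26, limma adjusted p = 7.23e-05 and 0.0301). Gja1 went the other way, higher at 48 h (0.90 ± 0.16, limma adjusted p = 0.00459) and at 24 h (1.04 ± 0.16, limma adjusted p = 0.00137). At 24 h Acta2 and Tagln stood at 0.71 and 1.24 against control. Of 5 tested microglia and macrophage markers 3 rose at 48 h and 1 at 24 h, against the same 6.76% and 8.15%, with sums of the 8 of 801 to 1303 under lactacystin at 48 h, against 343 to 725 in the controls, and 586 to 1208 under lactacystin at 24 h, against 424 to 628 in the controls. Of 7 neuron markers 2 fell at each time, against 3.57% of all probe sets at 48 h and 6.63% at 24 h, with sums of 11811 to 20919 under lactacystin at 48 h, against 19332 to 23760 in the controls, and 10289 to 14716 under lactacystin at 24 h, against 15647 to 22054 in the controls. No endothelial (2 tested) or oligodendrocyte (1 tested) marker was called. The sums are led by few genes, the mural one by Notch3, with group means of 282 to 368, and the astrocyte one by Fabp7 and Apoe. The fibroblast and meningeal sum is led by Pdgfra, with group means of 646 to 1227, and Thy1, with 496 to 710. The sums therefore say little of the other markers in a list. Which cells the signals of Pdgfra and Thy1 came from was not tested, so the sum of their list is not a measure of fibroblasts alone. The part of these cell types in the values of the contractile and CCN genes was not tested.

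**Figure D5:**
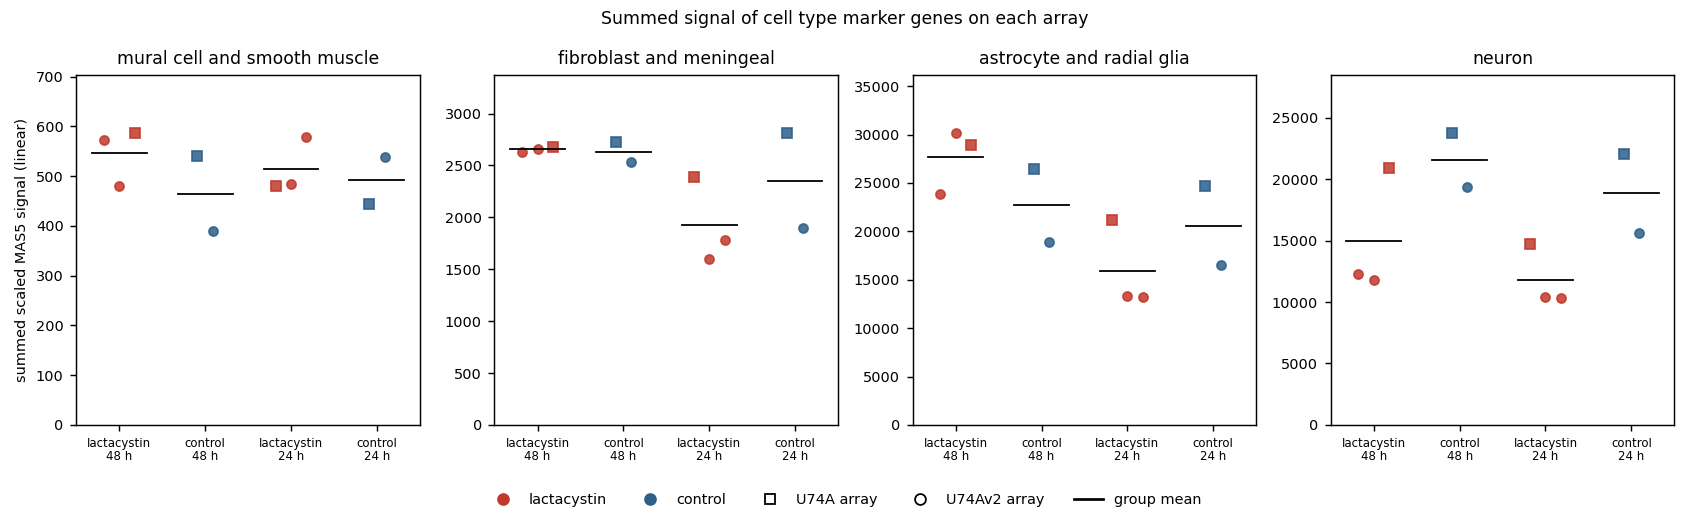
Summed scaled signal of 4 marker lists on each array (linear axis from 0), lactacystin groups in red left of the control groups of the same time in blue, squares for U74A arrays and circles for U74Av2 arrays. At 48 h the mural and smooth muscle sums, led by Notch3, are 480 to 587 under lactacystin and 389 to 540 in controls, and the astrocyte sums, led by Fabp7 and Apoe, are 23843 to 30163 and 18882 to 26485.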

How the data were processed

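RNA of 10 samples was measured on 10 Affymetrix arrays. Each deposited intensity is a probe set's summary signal on a linear scale, and per the submitters' processing notes MAS5 made it. Which release was run is not given in the sources used here. Medians of the arrays ran from 140.6 to 234.1, and 19.9% to 27.8% of an array's values lay under the pseudocount. The number of arrays limits the precision. After leaving out 66 control probe sets, the 9977 probe sets in common were scaled, array by array, to reach 500 in the 2% trimmed mean, and log2 was taken after adding a pseudocount of 32, which understates changes of low genes. The lowest 30% by mean (2993, a signal under 51.4) were left out. limma 3.58.1 in R 4.3.3 (lmFit, eBayes with trend, two-sided) fitted the 4 groups with array design as covariate and 5 residual degrees of freedom. Every adjusted p in the text is from limma, by Benjamini-Hochberg over the probe sets of its fit (6984 in the fit of all arrays), with a threshold of 0.05. Genes on U74Av2 alone came from a fit of those 6 arrays (8695 probe sets, 2 residual degrees of freedom). The fit was tested on simulated data.

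Gene names came from the platform annotation, updated with a RefSeq gene table (GRCm38.p6). A single symbol was found for 8724 of the probe sets in common, several for 346 (left unnamed) and none for 907. The probe set of highest mean stood for a gene. The members and lists were chosen with earlier results of these data known. Named genes were every member, for each list the 3 called genes that changed most at each time, and the 5 genes most like Ccn2 and Tagln. The other actins, the genes called between the times, the only fall, Actn4, Ptpn14 and marker genes were chosen after their values were seen. The first principal components held 45.3%, 21.5% and 12.3% of the variance. Alternatives tried were other pseudocounts, scalings and filters, no design covariate, U74Av2 alone, the replicate block, eBayes without trend, the compared groups alone and leaving out each array.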

Additional observations from a re-analysis of the deposited data

How the results depend on the processing

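Of 718 values of single genes under 21 alternatives, 642 kept their direction and their side of the threshold, 48 lost a call, 2 gained one and 26 changed sign, none of them called in either setting. The count of contractile and CCN genes called at 24 h (4) was 1 without the design covariate and 1 on the U74Av2 arrays alone, and 2 to 4 without single arrays. At 48 h (6) it was 2 without the design covariate and 4 to 6 without single arrays. For 48 h against 24 h under lactacystin (3) it was 1 without the filter, where 9977 probe sets were tested, 0 without the design covariate, and 0 to 4 without single arrays. In controls it was 0 throughout, and for the difference of effects 0 to 1. For 48 h against 24 h under lactacystin, Acta2 had a limma adjusted p of 0.0619 without the filter, 0.201 without the design covariate and 0.0505 without trend, Tagln had 0.204 without the covariate, and Tpm2 had 0.0786 after quantile normalization, 0.0717 without the filter and 0.0560 on U74Av2 alone. The cause of these losses was not tested.

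Without the design covariate the actin list had 2 calls at 24 h, 0 at 48 h and 0 between the times under lactacystin, the YAP and TEAD list 2 at 24 h and 1 at 48 h, and the TGF-beta list 1 at 24 h and 0 at 48 h. On U74Av2 alone the YAP and TEAD list had 3 at 24 h and 2 at 48 h, and the TGF-beta list 1 at 24 h and 1 between the times, which was 0 in the fit of all arrays. Between the times the actin list had 1 after quantile normalization and 1 without the filter, and the TGF-beta list had 1 at 48 h in the 2 groups alone. Without single arrays the actin list ran over 3 to 4 at 24 h, 2 to 6 at 48 h and 1 to 3 between the times, the YAP and TEAD list over 3 to 5 at each time, and the TGF-beta list over 1 to 3 at 24 h, 0 to 2 at 48 h and 0 to 2 between the times.

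Signs that turned were all of small changes. Under lactacystin between the times Cnn2 was 0.16 on U74Av2 alone, and without single arrays -0.42 to 0.13, with Ccn1 at -0.025 to 0.22. In controls quantile normalization gave Ccn1 0.041 and Cnn2 0.014, and U74Av2 alone gave Acta2 0.11, Cnn2 0.043, Myl9 -0.13 and Tpm2 0.13. Without single arrays the controls gave Ccn2 -0.23 to 0.38, Myl9 -0.24 to 0.37, Tagln -0.054 to 0.46, Tpm2 -0.44 to 0.0057, Ccn1 -0.34 to 0.28, Acta2 -0.81 to 0.35 and Cnn2 -0.22 to 0.10. For the difference of effects Ccn1 was -0.039 after quantile normalization and Cnn2 0.12 on U74Av2 alone, with -0.21 to 0.42 and -0.36 to 0.19 for these genes without single arrays.

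Same-numbered arrays had r of 0.23 to 0.67 in their deviations from group means in the 9 pairs of the same design and -0.62 to -0.55 in the 4 of different designs, so this check cannot tell number from design, and no pairing was taken from it. With the replicate number as a block the actin list had 3 calls at 48 h, Tpm2 lost its call between the times, and the counts of the contractile and CCN genes at 24 h and 48 h were unchanged at 4 and 6. Over the whole table the calls at 24 h (1032) were 250 without the covariate, 558 on U74Av2 alone and 308 without control 24 h replicate 2, those at 48 h (721) 113, 385 and 213 (without control 48 h replicate 2), those between the times under lactacystin (803) 133 without the covariate and 323 without lactacystin 24 h replicate 3, and those of the difference of effects (90) 2 without the covariate, 12 on U74Av2 alone, 48 without the filter and 5 without control 48 h replicate 1. The fit of the compared groups alone was not possible for the difference of effects, which needs all 4 groups. Signals near the pseudocount, as for Cnn1 and for Ccn2 in controls, limit what can be read of low genes.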
